A study of Mus musculus with 12 samples.

Results

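Schwann cells are the glia of peripheral nerve, and myelin is the wrapped membrane they lay around axons. The genes described here are those that the platform annotation pairs with exactly 1 of 4 symbols: Mbp, which encodes myelin basic protein, Pmp22, which encodes peripheral myelin protein 22, S100b, which encodes a calcium-binding protein of glia, and Prx, which encodes periaxin. Of these 4 genes, 3 had probe sets, 11 in all among 22626 tested: 8 for Mbp, 1 for Pmp22 and 2 for S100b. The platform annotation pairs no probe set with Prx, which was therefore not analysed here.

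The muscle was the white portion of the right gastrocnemius of male C57BL/6 mice of generation F5, 17 to 18 weeks old and fasted overnight. The 6 transgenic mice carried the R225Q mutant form of AMPK γ3, a regulatory subunit of the energy-sensing kinase AMPK, and the 6 controls were their wild-type littermates. Each mouse gave 1 array, and each array carries its own animal number. What promoter drives the transgene, and in which cells, is not given in the sources used here. The annotation likewise pairs none with Prkag3, the transgene's own gene, so the genotype labels have no check in these data. In the text the transgenic mice are replicates 1 to 6 and the wild-type mice replicates 7 to 12.

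Muscle tissue contains nerve branches, and in them compact myelin is held together by a small set of proteins. Myelin basic protein binds the cytoplasmic faces of the membrane to each other, and mice that lack it (shiverer) fail to form normal central myelin. PMP22 is a membrane protein of compact peripheral myelin whose gene dosage matters: in humans, duplication of PMP22 causes Charcot-Marie-Tooth disease type 1A and its deletion causes a neuropathy with liability to pressure palsies. S100B is a widely used marker of Schwann cells and other glia, and adipocytes also express it. Periaxin is a scaffold protein that ties the outer Schwann cell membrane to dystroglycan through DRP2. None of the 3 measured genes is exclusive to myelinating Schwann cells: the Mbp locus also yields golli transcripts in immune cells and neurons, and Pmp22, first found as a growth-arrest gene, is transcribed in fibroblasts and other cells.

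Pmp22 is known to have alternative promoters, and in rodents and humans an upstream one is used mainly by myelinating Schwann cells. Its single probe set reports the gene as a whole in the annotation used, so the signal could not be divided by promoter. RefSeq (GRCm38.p6) gives 4 start windows for Pmp22, each from 250 bases before to 50 bases after a start, and the most upstream of them and the next are shown because they differ in composition and each hold a CCAAT box. The upstream window, chr11:63128732-63129031 on the plus strand, has 50.7% G and C, close to the median of 52.7% over 32851 windows, while the next, chr11:63131207-63131506, has 60% and the remaining pair 66.3% and 72.3%. Which window belongs to which known promoter was not assigned here. Capitals mark the letters ATTGG, the reverse complement of CCAAT.
Pmp22 window 1: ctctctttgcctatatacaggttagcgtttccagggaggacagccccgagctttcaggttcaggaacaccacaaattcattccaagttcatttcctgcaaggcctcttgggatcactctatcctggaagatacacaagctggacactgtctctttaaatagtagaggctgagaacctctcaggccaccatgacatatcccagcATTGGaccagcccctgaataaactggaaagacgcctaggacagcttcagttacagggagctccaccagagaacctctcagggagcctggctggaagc
Pmp22 window 2: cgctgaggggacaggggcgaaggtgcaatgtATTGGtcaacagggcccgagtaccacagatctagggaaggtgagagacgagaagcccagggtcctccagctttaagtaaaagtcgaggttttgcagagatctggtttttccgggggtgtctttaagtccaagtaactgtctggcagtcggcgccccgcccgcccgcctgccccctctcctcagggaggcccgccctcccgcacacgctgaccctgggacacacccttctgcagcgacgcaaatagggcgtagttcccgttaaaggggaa
The match lies at base 204 of the first window and base 32 of the second. CCAAT was searched on both strands and occurs in 37.4% of all windows. ACAAAG and ACAATG, core letters that SOX proteins bind, and GTGGGNG, letters shared by sites of the EGR family, were searched the same way and are in none of the 4 Pmp22 windows, against 18.7%, 12.6% and 31.6% of all windows. No match says only that these letters are not in these windows.

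Intensities are given as log2 of the deposited values, and differences as transgenic minus wild type on that scale with the standard error from limma. None of the 11 probe sets passed limma at an adjusted p of 0.05, none had an unadjusted p under 0.05, and the genotypes overlapped in all 11. Over all 22626 probe sets, 0.0707% passed (0.0442% higher and 0.0265% lower in transgenic muscle), 4.63% had an unadjusted p under 0.05, and 0.504% did not overlap between the genotypes. Of the 11 differences, 8 were above 0, with a median of 0.06, against 48.6% above 0 and a median of -0.0024 over all probe sets. Of those 8, 6 were probe sets of the 1 gene Mbp, which are repeat measures of the same RNA samples. The count of unadjusted p-values depended on the fit: 2 of the 11 were under 0.05 in limma with hybridization day as a block (5.08% of all probe sets), 3 with run as a block (4.18%) and 3 on day 1 alone (4.14%). Leaving out wild-type replicate 12 gave 2 (4.94%), wild-type replicate 10 gave 1 (4.41%) and transgenic replicate 1 gave 1 (5.6%), all of these being Mbp sets that were higher in transgenic muscle, and none passed after adjustment. Without a block, all 11 limma adjusted p-values were 0.999, and the exact permutation p-values over all regroupings of the 12 arrays, two-sided, were 0.147 or higher. In whole tissue, fewer cells of a type and less RNA per cell cannot be told apart.

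**Figure D1:**
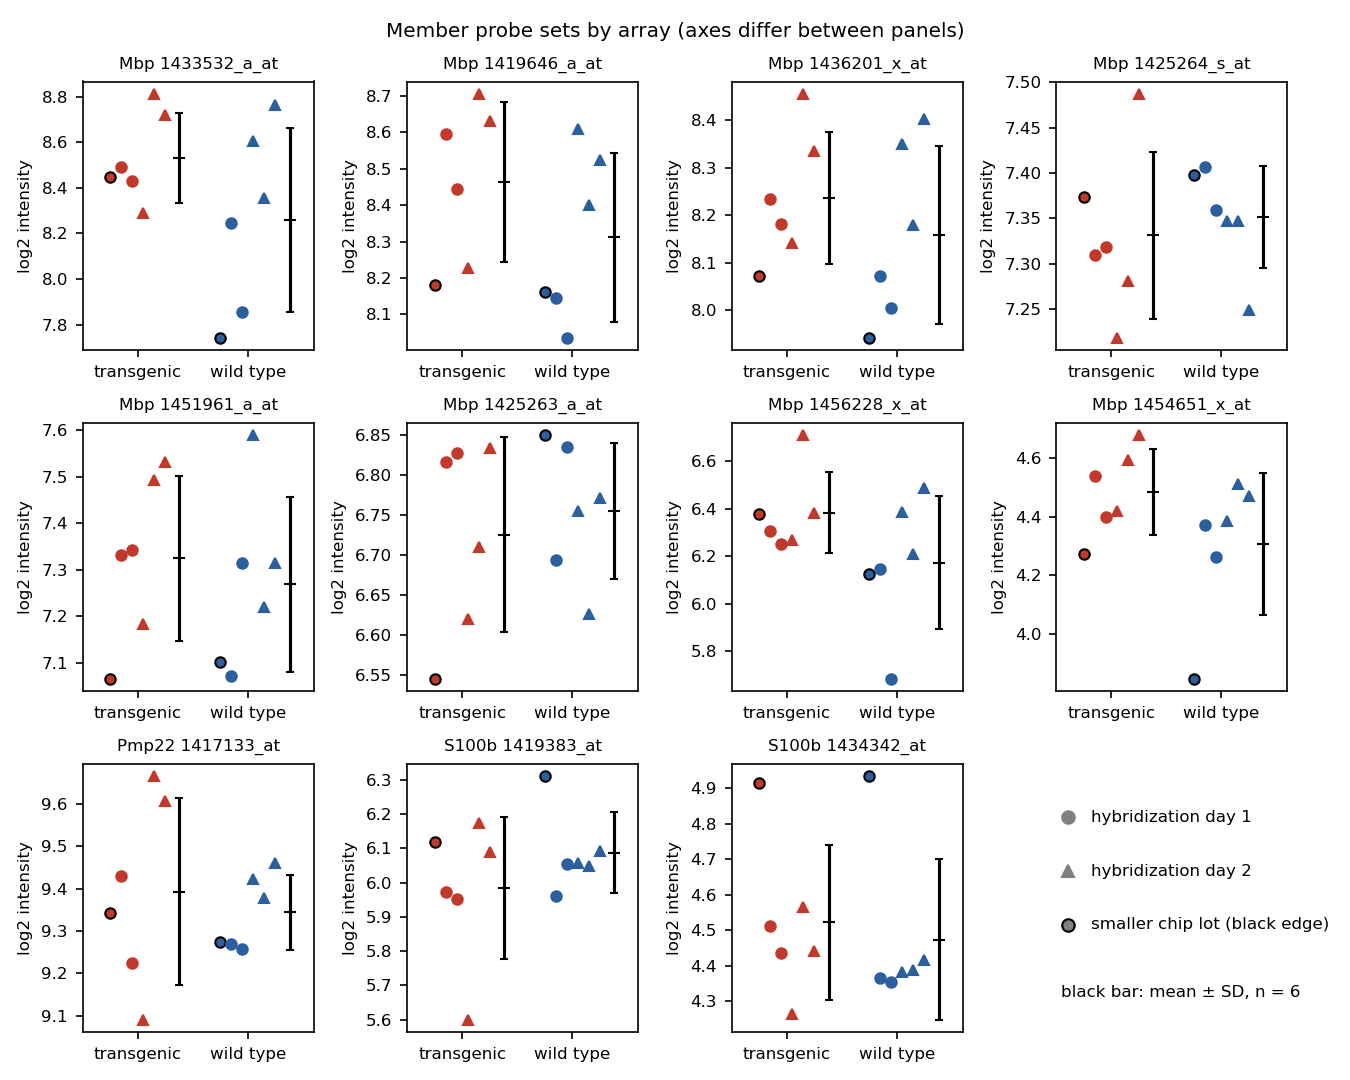
Log2 intensity (y axis) of each of the 11 member probe sets in 6 transgenic (red) and 6 wild-type (blue) arrays, with the mean and SD (n = 6) beside each group. The genotypes overlap in every panel, and the 2 arrays of the smaller chip lot (black edge) stand high for the S100b probe set 1434342_at.

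The brightest Mbp probe set, 1433532_a_at, ranged from 8.29 to 8.81 log2 units in transgenic muscle, with a median of 8.47. In wild-type muscle it ranged from 7.74 to 8.77, with a median of 8.30. The wild-type mean was exceeded in 6 of 6 transgenic mice, but only 1 exceeded the highest wild-type value. Wild-type values spread more widely, and replicates 7, 8 and 9 (7.74, 8.25 and 7.85), all hybridised on the first of 2 days, lay below every transgenic value. Group levels were 8.53 ± 0.20 for the transgenic and 8.26 ± 0.41 for the wild-type mice (SD, n = 6 each), a difference of 0.27 ± 0.15 (SE; limma adjusted p = 0.999). The 95% interval ran from -0.05 to 0.60, which is 0.964 to 1.51 as a fold, and these arrays cannot separate values within it.

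The settings text of the arrays records those 2 hybridization days, each with both genotypes. On day 1, with 3 arrays per genotype, transgenic minus wild type was 0.51 for this probe set (limma adjusted p = 0.854), and on day 2 it was 0.03 (limma adjusted p = 0.9998). Whether the days differ in the genotype effect was not tested. With day as a block the limma p was 0.0370 and the adjusted p 0.888, and the difference was 0.18 with transgenic replicate 1 and wild-type replicate 7, which share a smaller chip lot, left out. Leaving out single arrays gave 0.17 (without wild-type replicate 7) to 0.37 (without wild-type replicate 12).

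The other 7 Mbp probe sets gave smaller differences. Next in brightness, 1419646_a_at was at 8.46 ± 0.22 against 8.31 ± 0.23 (SD, n = 6 each), a difference of 0.15 ± 0.11. Probe set 1436201_x_at was at 0.08 ± 0.09, 1451961_a_at at 0.06 ± 0.09, 1456228_x_at at 0.21 ± 0.11 and 1454651_x_at at 0.18 ± 0.10. The remaining pair were at -0.02 ± 0.05 (1425264_s_at) and -0.03 ± 0.06 (1425263_a_at). In Affymetrix naming, _a marks probes shared by transcripts of 1 gene, _s probes shared by transcripts of several genes and _x probes similar to other sequences, so 4 of the 8 Mbp sets may hold signal from elsewhere. Averaged over its 8 probe sets, Mbp was at 0.11 (limma adjusted p = 0.999).

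Pmp22 (1417133_at) ranged from 9.09 to 9.67 in transgenic muscle, with a median of 9.39, and from 9.26 to 9.46 in wild-type muscle, with a median of 9.33. Here the transgenic arrays spread more widely and held both the lowest value, in replicate 4, and the 2 highest, in replicates 5 and 6. Its level was 9.39 ± 0.22 against 9.34 ± 0.09 (SD, n = 6 each), a difference of 0.05 ± 0.09 (SE; limma adjusted p = 0.999; 95% interval -0.14 to 0.24). The difference was 0.06 on day 1 and 0.03 on day 2, and it was -0.0055 without transgenic replicate 5.

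Both S100b probe sets lay below the median probe set of 6.66. The brighter, 1419383_at, had a mean of 6.04 and was brighter than only 35.3% of tested probe sets. It ranged from 5.60 to 6.17 in transgenic muscle, with a median of 6.03. In wild-type muscle it ranged from 5.96 to 6.31, with a median of 6.06. Transgenic replicate 4 was the lowest of all arrays and wild-type replicate 7 the highest. Group levels were 5.98 ± 0.21 and 6.09 ± 0.12 (SD, n = 6 each), a difference of -0.10 ± 0.09 (SE; limma adjusted p = 0.999; 95% interval -0.29 to 0.08). It was -0.03 without transgenic replicate 4 and -0.06 without wild-type replicate 7. The second S100b probe set, 1434342_at, is dim and stood at 4.91 in transgenic replicate 1 and 4.93 in wild-type replicate 7, against 4.26 to 4.57 in the other 10 arrays. Those 2 arrays are the ones of the smaller chip lot, and their Gapdh control probes differed most between the 3′ and 5′ ends, by 0.185 and 0.184 log2 units against -0.0944 to -0.00174 in the others. For actin control probes the same measure was -0.108 in replicate 1, close to the others (-0.221 to -0.112), and 0.0328 in replicate 7. The mean r of replicates 1 and 7 with the other arrays was the lowest, at 0.990 and 0.989 against 0.993 or more. The part of chip lot or RNA integrity in the values of 1434342_at was not tested.

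**Figure D2:**
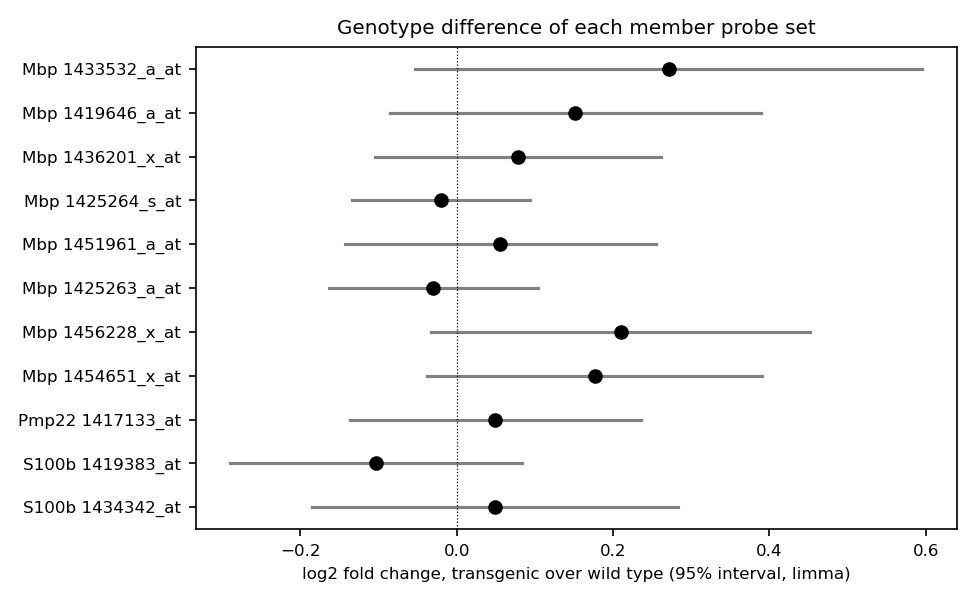
Log2 fold change, transgenic over wild type (x axis), of each member probe set, with limma's 95% interval (lines). Every interval includes 0, and the widest, that of Mbp 1433532_a_at, runs from -0.05 to 0.60.

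Between arrays of the same genotype, some Mbp probe sets were among the more variable of those tested. The SD used here also holds the difference between hybridization days, which was 0.39 ± 0.12 (SE) for 1433532_a_at with genotype in the fit. The within-genotype SD of 1433532_a_at was 0.318 log2 units, larger than that of 98.8% of tested probe sets, and that of 1456228_x_at and 1419646_a_at was larger than that of 94.8% and 94.2%. For Pmp22 it was 0.169, above 80.4% of probe sets. By contrast 1425264_s_at and 1425263_a_at had SDs of 0.0761 and 0.105, above only 11.7% and 35.2%. The full range of 1433532_a_at over the 12 arrays was 1.07 log2 units.

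Much of this variation was shared among Mbp probe sets. Over the 12 arrays, 6 of the 8 correlated with each other, with Pearson r between 0.370 and 0.927 (median 0.769 over 15 pairs), and 11 of these 15 pairs passed a permutation test at an adjusted p under 0.05 over the 28 pairs of Mbp sets. Pairs that included 1425263_a_at or 1425264_s_at had r between -0.289 and 0.434, and none of the 13 passed. The split into 6 and 2 was made from these values, is a description, and was less clear among deviations from the genotype and day means. There r within the 6 ran from -0.124 (1456228_x_at with 1454651_x_at) to 0.867, with a median of 0.549, and r of pairs with the other sets from -0.0577 to 0.761, with a median of 0.197. In particular 1425263_a_at had r of 0.761 with 1451961_a_at and 0.705 with 1419646_a_at, and the brightest set had 0.156 with 1425263_a_at and 0.216 with 1425264_s_at. Probe sets of 1 gene are repeat measures of the same RNA sample, not separate evidence about the mice.

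**Figure D3:**
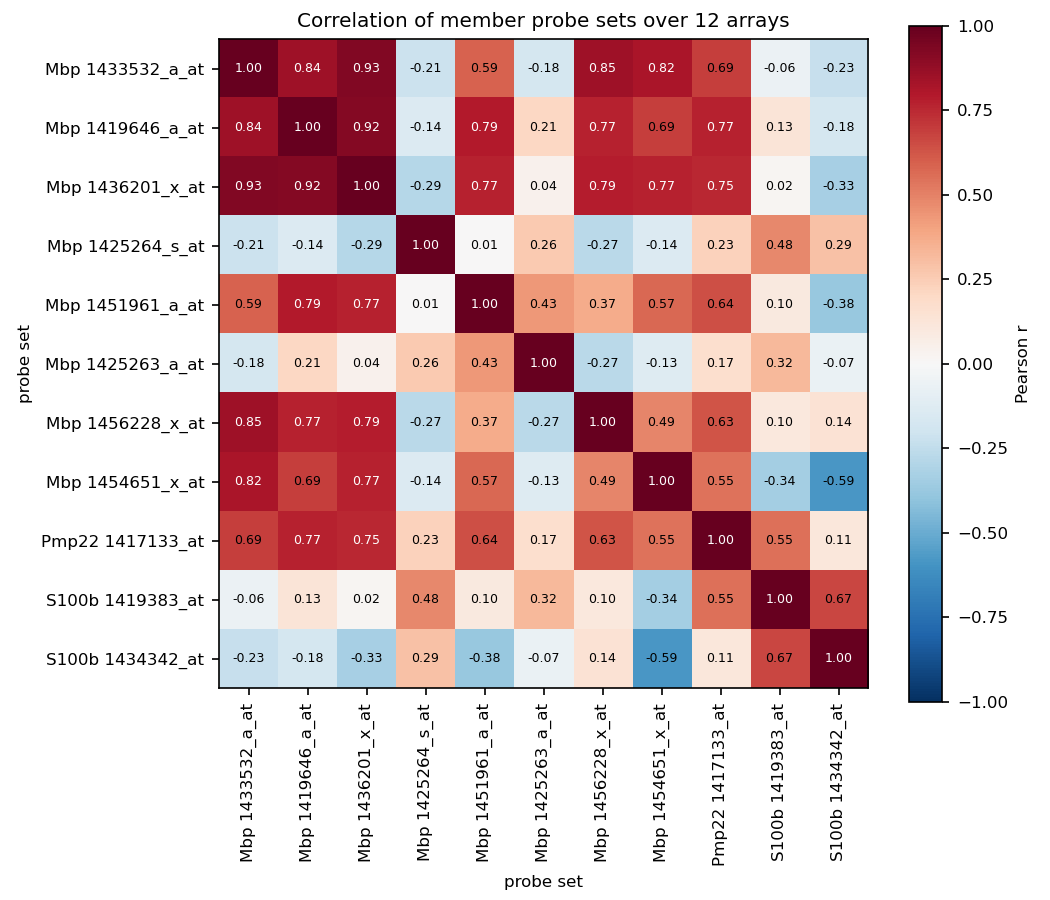
Pearson r over the 12 arrays for each pair of member probe sets (both axes list the probe sets, colour and number give r). Before genotype and day means are removed, 6 Mbp sets have r of 0.55 to 0.77 with Pmp22, and 1425263_a_at and 1425264_s_at have r below 0 with the brightest Mbp set. After removal all 8 Mbp sets have r of 0.357 to 0.762 with Pmp22, which is not drawn.

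Mbp and Pmp22 tended to be high in the same mice. Replicates 5, 6, 10 and 12 had the 4 highest values of Mbp 1433532_a_at, and 3 of those mice also had the 3 highest values of Pmp22. The low end was less alike, with Mbp lowest in replicate 7 (7.74) and Pmp22 lowest in replicate 4 (9.09). Pearson r was 0.688 (permutation p = 0.0134, adjusted over the 3 gene pairs 0.0401) and Spearman's rho 0.818 (permutation p = 0.00197, adjusted 0.00591; n = 12, two-sided). The relation was also seen among deviations from the genotype means (r = 0.695, adjusted permutation p = 0.0367) and without the 2 arrays farthest from the Pmp22 median (r = 0.718, adjusted 0.0403). Within the transgenic mice r was 0.970 (exact permutation p = 0.00139, n = 6), and within the wild-type mice 0.905 (exact permutation p = 0.0181, n = 6, adjusted 0.0542).

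Hybridization day was compared beside these values, a choice made after seeing them. On day 2, Mbp 1433532_a_at was at 8.59 ± 0.22 against 8.20 ± 0.33 on day 1 (SD, n = 6 each), and the 6 Mbp probe sets other than 1425263_a_at and 1425264_s_at all had higher means on day 2, each at an unadjusted p under 0.05 in limma with genotype in the fit. Over all probe sets, 9.44% had an unadjusted p under 0.05 in that fit, counted in either direction. None of the 11 member sets or of the 22626 tested passed the adjusted threshold (0.0%). Pmp22 was 0.14 ± 0.08 higher on day 2 (limma adjusted p = 0.608). Within day 1 the correlation of Pmp22 and Mbp was 0.455 (exact permutation p = 0.386, n = 6), within day 2 it was 0.873 (exact permutation p = 0.00833, n = 6), and among deviations from the day means it was 0.589 (permutation p = 0.0372, adjusted 0.0557). Among deviations from the genotype and day means together it was 0.677 (adjusted permutation p = 0.0166). The permutations took the 12 deviations as exchangeable, although removing means ties them together. The p-values for deviations from genotype means, day means or both can therefore be too small. The call by Pearson r was lost at an adjusted p of 0.05 on leaving out any 1 of 9 arrays, with adjusted permutation p-values up to 0.134 (without transgenic replicate 5), and was kept without replicate 3, 4 or 7, with r between 0.615 and 0.758 throughout. Centring each array on its median gave r = 0.720 (adjusted permutation p = 0.0246) and quantile normalization 0.603 (adjusted 0.0571). Spearman's rho passed without each of the 12 arrays (adjusted permutation p of 0.00168 to 0.0262) and after quantile normalization (0.00798). It did not pass about day means (rho = 0.524, adjusted 0.126) or within day 1 (rho = 0.486, adjusted 0.497). Nor did it pass within the wild-type mice alone (rho = 0.829, adjusted exact permutation p = 0.175, n = 6).

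No relation of S100b with Mbp was detected over the 12 arrays (r = -0.0607, permutation p = 0.847; rho = 0.301, permutation p = 0.340). With Pmp22 its r was 0.553 (permutation p = 0.0621, adjusted 0.0932). The values on the 2 days were far apart, a difference that was not tested: S100b and Mbp had r of -0.680 on day 1 (exact permutation p = 0.118, n = 6) and 0.773 on day 2 (exact permutation p = 0.00139, n = 6), and S100b and Pmp22 -0.0705 (exact permutation p = 0.896, n = 6) and 0.920 (exact permutation p = 0.00417, n = 6). Single arrays moved them too: without transgenic replicate 4, r between S100b and Pmp22 was 0.233 (adjusted permutation p = 0.492). Without wild-type replicate 7, r between S100b and Pmp22 was 0.765 (adjusted permutation p = 0.0063) and r between S100b and Mbp 0.377 (adjusted 0.232), with rho of 0.691 for the latter pair (adjusted 0.0230). For that pair rho was also 0.733 without the smaller chip lot (adjusted permutation p = 0.0203) and 0.673 without the 2 arrays farthest from the S100b median (adjusted 0.0438).

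The S100b signal rose and fell with the array as a whole. Its r with the array's median log2 intensity was 0.786 (permutation p = 0.00041, adjusted over 3 genes 0.00123; rho = 0.748, permutation p = 0.00718, adjusted 0.0215; n = 12), and 0.615 without the 2 arrays with the most extreme medians. It was 0.873 within day 1 and 0.756 within day 2. The medians spanned only 6.61 to 6.69 log2 units, against 5.60 to 6.31 for S100b. For Pmp22 the same r was 0.530 (adjusted permutation p = 0.113) and for Mbp -0.106 (adjusted 0.741), and within days 1 and 2 it was 0.0375 and 0.854 for Pmp22 and -0.707 and 0.668 for Mbp. How common such an r with the array median is among all probe sets was not counted, so it is not shown to be particular to S100b. Genes of some other cells also varied with S100b. Their median r with S100b was 0.577 for lymphocyte and 0.489 for oligodendrocyte genes, but -0.423 for endothelial genes, against 0.148 over all genes. The part of the array's overall intensity in the S100b differences was not tested.

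**Figure D4:**
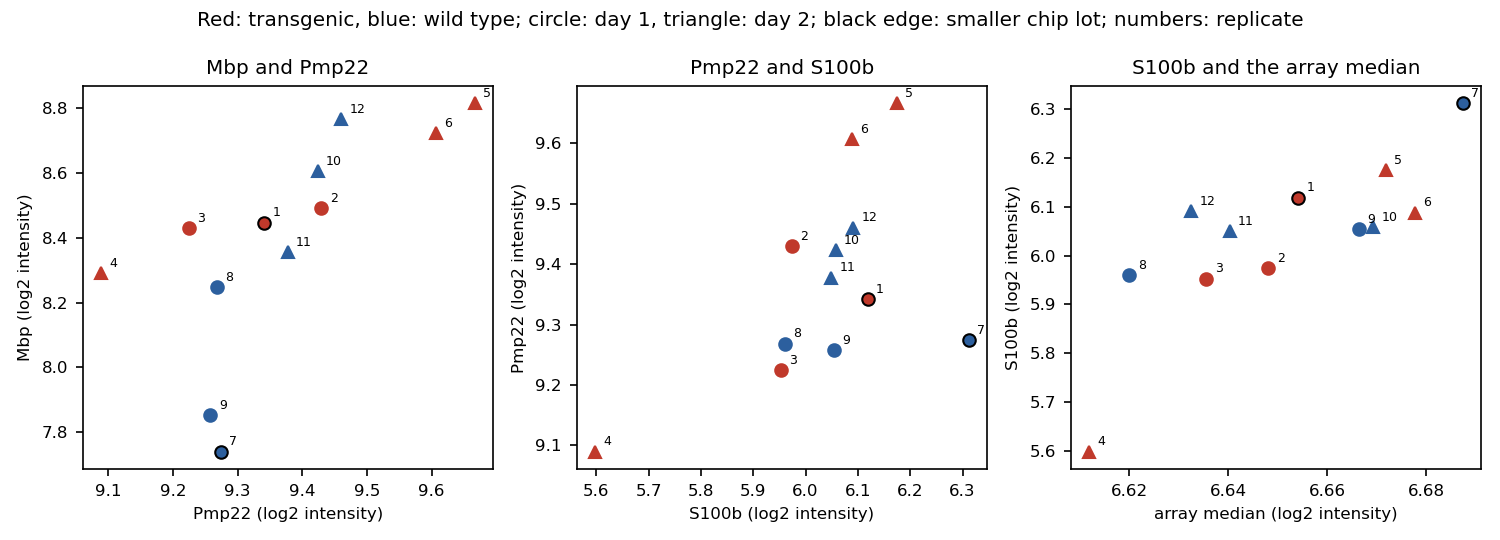
Log2 intensities of 12 arrays, numbered by replicate: Mbp against Pmp22 (left), Pmp22 against S100b (middle) and S100b against the median of each array (right). Mbp rises with Pmp22 (r = 0.688), replicate 7 stands apart in the middle panel, and S100b follows the array median (r = 0.786).

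The genes whose levels over the 12 arrays were most like those of each member were sought among 7390 genes (7391 for S100b) brighter than the median probe set, by Pearson r. The values below were chosen as the highest and are a description. Closest to Mbp 1433532_a_at was Apod, which encodes apolipoprotein D, a lipocalin made in peripheral nerve among other tissues (r = 0.850, rho = 0.804, n = 12). The second was Cnp, which encodes the myelin enzyme 2′,3′-cyclic nucleotide phosphodiesterase (r = 0.825, rho = 0.797), followed by Prpf38a, a splicing factor (r = 0.821), and Ppt1, the lysosomal palmitoyl-protein thioesterase (r = 0.813). Apod ranged from 9.01 to 9.33 in transgenic and from 8.64 to 9.31 in wild-type muscle, and Cnp from 7.45 to 7.81 and from 7.18 to 7.82, so both overlapped between genotypes and both were lowest in replicate 7.

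Within days, r with Mbp was 0.830 and 0.657 for Apod, 0.696 and 0.801 for Cnp, 0.759 and 0.543 for Prpf38a and 0.896 and 0.593 for Ppt1. Without the 2 arrays farthest from the Mbp median, r was 0.719 for Apod, 0.660 for Cnp, 0.695 for Prpf38a and 0.566 for Ppt1. Among deviations from the genotype and day means, in the same order, it was 0.585, 0.709, 0.357 and 0.670. Cnp has 3 probe sets, and the one close to Mbp, 1437341_x_at, is of the kind that may share probes with other sequences. Its other sets had r with Mbp of 0.490 and 0.0179, and the second set of Ppt1 had 0.166. Myelin genes as a list were not close to Mbp. Over 9 measured genes of the myelin sheath, Cnp included, r with Mbp ran from -0.554 (Pllp) to 0.825. Their median was 0.0165, against -0.0327 over all 12393 genes. With Pmp22 and S100b the median of these 9 genes was 0.571 and 0.635, against 0.0804 and 0.148 over all genes. Lymphocyte genes also had a high median r with S100b, as given above.

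Pmp22 and S100b were most like other genes. For Pmp22 they were Ints8, a subunit of the Integrator complex (r = 0.898), C86187 (r = 0.896), Cacna1g, a T-type calcium channel (r = 0.881), and Cited1, a transcriptional co-regulator (r = 0.853). For S100b they were Foxb2, a forkhead factor (r = 0.927), Zw10, a kinetochore protein (r = 0.912), 1700120K04Rik (r = 0.904) and Cacng2, a regulator of glutamate receptors in brain (r = 0.903). Foxb2 and Cacng2 fell to r = 0.435 and r = 0.441 without the 2 arrays farthest from the S100b median, which are transgenic replicate 4 and wild-type replicate 7. Ints8 stayed at 0.886 without the 2 arrays farthest from the Pmp22 median, and its second probe set had r with Pmp22 of -0.242. None of these genes passed the genotype test (limma adjusted p of 0.999 or more).

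Other genes of myelin were examined as lists, each gene by its brightest probe set. Of 15 further genes of the myelin sheath 9 were measured, and the remaining 6 were not analysed here. None passed in either direction, none had an unadjusted p under 0.05 in limma, 4 differences were positive and 5 negative, and the median was -0.0076, against -0.0013 over all 12393 genes, of which 0.0888% passed and 49.4% had a difference above 0. The 4 with the smallest p were Mal, a raft protein of myelin (-0.11 ± 0.07, SE), Gjb1, which encodes connexin 32 (-0.13 ± 0.08), Mag, the myelin-associated glycoprotein (0.08 ± 0.07), and Ncmap, a non-compact myelin protein (0.06 ± 0.07). The second probe set of Gjb1 was at 0.11 ± 0.10 and that of Mal at -0.05 ± 0.08. Over the 9 genes the mean level was 6.92 ± 0.11 against 6.93 ± 0.05 (SD, n = 6 each), with ranges of 6.75 to 7.03 and 6.86 to 7.003.

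Of 22 genes of Schwann cell identity and signalling, 19 were measured and none passed, with 7 positive and 12 negative differences and a median of -0.012. An unadjusted p under 0.05 was found for 2 of them in limma, against 4.91% of all genes. These were Itga6, the laminin receptor subunit α6, at 0.30 ± 0.09 (limma adjusted p = 0.592), and Gfap, an intermediate filament of glia and non-myelinating Schwann cells, at 0.15 ± 0.06 (limma adjusted p = 0.803). Endothelial cells also make integrin α6, and in the endothelial list 9 of 9 differences were positive with a median of 0.19, and list means were 7.44 to 7.71 in transgenic and 7.34 to 7.50 in wild-type arrays, although none of its genes passed (6 had an unadjusted p under 0.05). The second probe set of Itga6 was at 0.21 ± 0.09 (limma unadjusted p = 0.0278, adjusted p = 0.907). The part of endothelial RNA in the Itga6 values was not tested. Gfap ranged from 6.83 to 7.06 in transgenic and from 6.71 to 6.94 in wild-type muscle, and its second probe set was at -0.01 ± 0.06. Next by p were Tfap2a, a transcription factor of the neural crest (-0.09 ± 0.06), and Scn7a, an atypical sodium channel of Schwann cells (-0.06 ± 0.05). The other probe sets of Tfap2a were at 0.05 and -0.02. Sox10, the transcription factor that specifies Schwann cells, was at -0.0028 ± 0.07, and its other probe sets were at -0.01 and -0.03.

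Lipid synthesis genes used in making myelin, of which 10 of 12 were measured, had 6 positive and 4 negative differences and a median of 0.01. Cers2, the ceramide synthase of very long chain lipids, was at 0.09 ± 0.07, Srebf2 at -0.09 ± 0.08, Dhcr7 at -0.07 ± 0.07 and Sqle at 0.06 ± 0.09, the last 3 belonging to cholesterol synthesis. Axonal genes, 11 of 12 measured, had 4 positive and 7 negative differences and a median of -0.018, with Uchl1 at -0.09 ± 0.06, the choline transporter Slc5a7 at -0.09 ± 0.09, the neurofilament gene Nefm at 0.05 ± 0.06 and Stmn2 at -0.05 ± 0.09. In both lists no gene passed and none had an unadjusted p under 0.05 in limma.

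**Figure D5:**
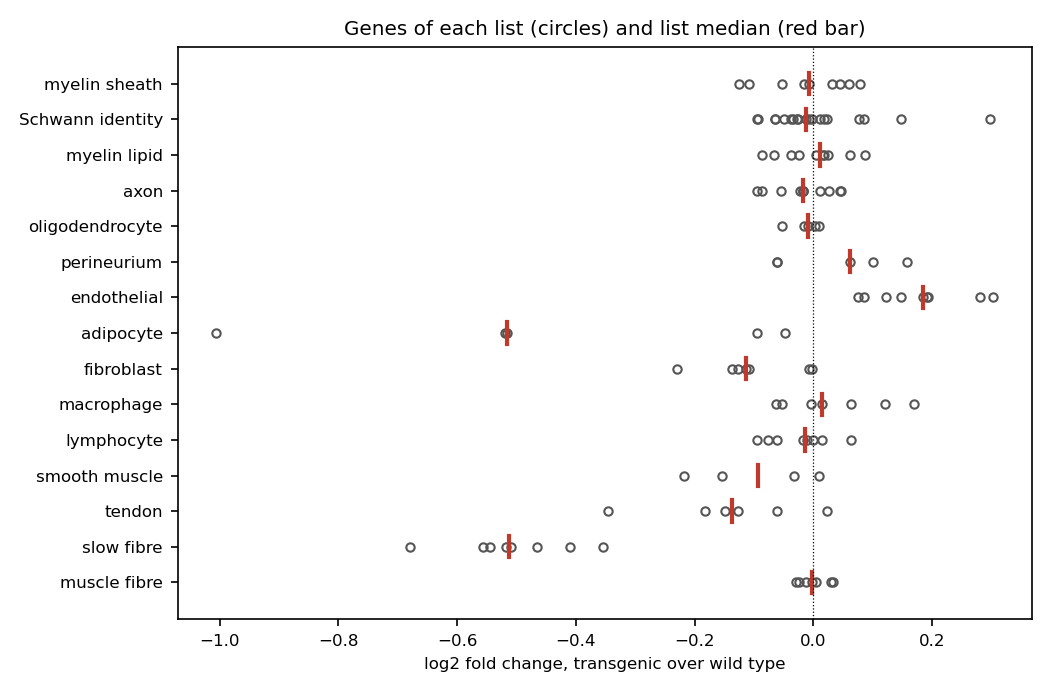
Log2 fold change, transgenic over wild type (x axis), of the measured genes of each list (circles), with the list median (red bar). The 4 lists of myelin, Schwann cell, myelin lipid and axonal genes have medians between -0.018 and 0.01, while the endothelial median is 0.19 and the adipocyte median -0.52.

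Markers of other cells were read beside the members. A list of 7 muscle fibre genes, some of all skeletal fibres (Acta1, Ckm) and some of fast fibres (Myh4, Actn3), had list means of 13.5 to 13.6 in every array. Adipocyte genes, which matter here because adipocytes express S100b, had 5 of 5 differences below 0 with a median of -0.52 and none passed (3 had an unadjusted p under 0.05), with list means of 7.50 to 8.20 in transgenic and 7.95 to 8.79 in wild-type arrays. Smallest in p were Lep, the leptin gene, at -0.52 ± 0.15 (limma adjusted p = 0.552), and Cidec, a lipid droplet protein, at -0.52 ± 0.18 (limma adjusted p = 0.731). Fibroblast genes had 7 of 7 negative differences with a median of -0.11 (list means 8.78 to 9.14 and 8.80 to 9.23), and macrophage genes a median of 0.02 (7.04 to 7.31 and 6.98 to 7.29). Genes of oligodendrocytes, the myelinating glia of the central nervous system, had a median of -0.0087 with list means of 4.47 to 4.58 and 4.48 to 4.65, and none of the 5 measured was brighter than the median probe set. Perineurial genes had a median of 0.06, lymphocyte genes -0.01, smooth muscle genes -0.09, slow and oxidative fibre genes, which include the fast IIa myosin Myh2, -0.51 with 8 of 8 negative (-0.31 without wild-type replicate 9), and tendon genes -0.14 (-0.07 without transgenic replicate 3 and -0.01 on day 2 alone), where 1 gene, Tppp3, passed (-0.35 ± 0.05, limma adjusted p = 0.0257). The part of these cell types in the values of Mbp, Pmp22 and S100b was not tested.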

How the data were processed

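Total RNA from 12 mice, with biotin as the label, was measured on 1 Affymetrix MOE430A array each. The authors deposited intensity values on a linear scale, and the submitters' processing notes name RMA, with no version in the sources used here. The deposited settings text, classed as other than expression, gave hybridization day and chip lot, and runs were inferred from close times, each with 2 arrays of 1 genotype and 1 of the other. Scanner images were not used here and background could not be assessed. The number of arrays limits the precision.

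The intensities were converted to log2. Of 22690 probe sets, 64 controls were set aside and 22626 tested by limma (version 3.58.1, R 4.3.3; lmFit then eBayes, two-sided with no covariate). The p-values were adjusted over all of them by the Benjamini-Hochberg method. Of these, 20380 carry 1 symbol, 691 several and 1555 are not listed. A gene is represented by its brightest probe set over the 12 arrays. Correlations used 100000 resamples, or all permutations for 6 arrays (NumPy 2.4.6).

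The members and lists were chosen with earlier results of these data known. Named genes are all member probe sets, the 4 genes most like each member, and the up to 4 genes of each pathway list (up to 2 of other lists) with the smallest p. Others, such as Sox10, were chosen after their values were seen. The comparison of hybridization days and the array medians were added after seeing the data. limma and the correlation test were tested on simulated data.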

Additional observations from a re-analysis of the deposited data

Results flagged for a closer look

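In 3 of the 22 groups of 6 arrays formed by the 11 probe sets and 2 genotypes, 1 array lay far from the others by Dixon's test at the 95% level. Chance alone flags about 1 group in 20. S100b 1434342_at was highest in wild-type replicate 7, at 4.93, with a gap to the next array of 0.892 of the group's range. S100b 1419383_at was also highest there, at 6.31, with a gap of 0.626, just past the critical value. Mbp 1456228_x_at was highest in transgenic replicate 5, at 6.71, with a gap of 0.713. Replicate 7 belongs to the smaller chip lot, and replicate 5 had the highest transgenic values of Mbp 1433532_a_at, Pmp22 and S100b 1419383_at.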

How the results depend on the processing

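No member probe set passed limma under any of the 22 alternatives, which left out each array, blocked or split by hybridization day or run, left out the smaller chip lot, changed the scaling, added 16 before the log, altered the moderation or dropped dim probe sets (7 of 11 members and no oligodendrocyte gene then remained). No paired analysis was possible because the titles number transgenic mice 1 to 6 and wild-type mice 7 to 12, with no shared number. Small differences changed sign: on day 2 alone Mbp 1436201_x_at was at -0.000275, 1425264_s_at at 0.0142 and 1425263_a_at at 0.0035, the last also at 0.0032 with run as a block and 0.0250 without the smaller lot. On leaving out 1 array, the ranges were -0.0514 to 0.0024 for 1425264_s_at, -0.0558 to 0.0060 for 1425263_a_at, 0.0963 to 0.211 for 1419646_a_at, 0.0343 to 0.127 for 1436201_x_at, 0.0145 to 0.120 for 1451961_a_at, 0.112 to 0.272 for 1456228_x_at, 0.0841 to 0.218 for 1454651_x_at, -0.141 to -0.0258 for S100b 1419383_at, -0.0055 to 0.110 for Pmp22 and -0.0298 to 0.141 for S100b 1434342_at.

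Over all probe sets 10 were higher and 6 lower in transgenic muscle. Leaving out 1 array gave 4 to 12 and 1 to 6, run as a block 4 and 2, day 1 alone 1 and 0, day 2 alone 1 and 1, and day as a block 12 and 11. On day 2 alone the list medians were 0.0278 for Schwann identity, 0.0064 for perineurial and 0.0814 for endothelial genes, and on day 1 alone -0.0943 for adipocyte genes. The perineurial median was -0.0605 over brighter probe sets, 0.0145 with the mean over probe sets, and 0.0337 to 0.0867 on leaving out 1 array. Leaving out 1 array also moved the tendon median between -0.211 and -0.0673 and the slow fibre median between -0.664 and -0.308.

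For Pmp22 and Mbp, r was 0.603 after quantile normalization (adjusted permutation p = 0.0571), 0.455 on day 1, 0.589 about day means, 0.677 about genotype and day means, 0.905 in wild-type mice and 0.615 to 0.758 on leaving out 1 array. For S100b and Mbp it was 0.0854 about genotype means, 0.773 on day 2, 0.455 without the 2 farthest arrays, 0.391 without the smaller lot, 0.0464 about day means, 0.305 about genotype and day means, 0.778 in transgenic mice and -0.244 to 0.377 on leaving out 1 array. For S100b and Pmp22 it was 0.644 about genotype means, -0.0705 on day 1, 0.920 on day 2, 0.696 without the 2 farthest arrays, 0.805 without the smaller lot, 0.816 about genotype and day means, 0.825 in transgenic and -0.119 in wild-type mice, and 0.233 to 0.765 on leaving out 1 array. These 3 relations on other scalings, within genotypes and about day means, and the Mbp pairs about genotype and day means, were added after seeing the data. Where a value moved, the cause was not tested.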
